A study of Sus scrofa domesticus with 9 samples.

Results

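Interferon-stimulated antiviral genes are the genes that cells switch on after interferon binds its receptor, and 44 of them were chosen by name from a list of 45 symbols, since DDX58 and RIGI are the same gene. The files held 16240 genes in all. Of the 44, 10 had a count in every library, 29 had only an authors' mean and 5 had no value that was analysed here. The values were liver RNA-Seq read counts from 9 preterm Yorkshire piglets, 3 bottle-fed and 6 in the PN group, at day of life 15. PN is parenteral nutrition, the intravenous feeding that can lead to intestinal failure-associated liver disease, and the comparison asked which liver transcripts differ early in that disease.

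All piglets were delivered preterm by caesarean section, carried a jugular venous catheter and were started on PN with a soybean oil lipid emulsion. The PN group stayed on PN until sacrifice and also received a medium chain triglyceride vehicle by daily orogastric gavage. The bottle-fed group was weaned off PN within the first days of life and fed sow milk replacer. The 2 groups were separate cohorts from separate sows and litters, so feeding, litter and vehicle cannot be told apart. RNA came from whole tissue of the right median lobe, in which fewer cells of a type and less RNA per cell cannot be told apart.

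Type I and type III interferons signal through paired receptors and the kinases JAK1 and TYK2 to a complex that holds STAT2 and IRF9 and binds a DNA element called the interferon-stimulated response element (ISRE). Interferon gamma acts mainly through another element, GAS. The induced proteins sense foreign RNA, degrade or edit RNA, block virus particles, or amplify the signal. In liver, hepatocytes and Kupffer cells can both respond to interferon.

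Sequencing depth was alike in both groups, with 17106838 to 24025142 counts per bottle-fed library and 17337946 to 23421807 per PN library. Of the hepatocyte markers, 7 of 7 had a value in the table of all genes, with an authors' mean of 1886800 normalized counts for ALB and of 28.9 for SERPINA1. The study excluded 1 PN library as an outlier, which its sample clustering plot marks as experimental animal 5 (PN 5 here), so that fold changes and tests are given without it (8 livers) and with it (9 livers), while every value per liver includes it. Counts per liver exist for 1054 genes, all of which the authors had selected on the PN to bottle-fed contrast by an adjusted p under 0.05 and a log2 change over 1 in size. A call on one of these genes is therefore a description and not independent evidence of a difference.

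The 10 genes with counts in every liver were the RNA sensor IFIH1, the transcription factor IRF9, the effectors IFIT1, MX1, OAS2, ISG20, ADAR and ZC3HAV1, and the enzymes CMPK2 and IDO1. In 9 of them PN 5 was the highest PN liver, PN 3 the next highest. The authors' selection of these genes most likely included PN 5, as given below, so its high place is not independent of that selection. The bottle-fed livers lay close together in 8 of the 10, with a smaller SD than the table's median gene, but not in ISG20 and IDO1. Relative to the bottle-fed mean, the median over these 9 genes (all but IDO1) was 19.6-fold in PN 5, 6.54-fold in PN 3 and 2.96-fold in PN 6, against 1.76-fold in PN 2, 1.60-fold in PN 1 and 1.38-fold in PN 4. The 9 genes exceeded 2-fold in 9 of 9 cases in PN 5 and in PN 3, in 7 in PN 6, in 3 in PN 2, and in 1 each in PN 1 and PN 4. No bottle-fed liver exceeded 2-fold for any of the 9.

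The ISRE letters were looked for in the promoters, taken as 250 bases before to 50 bases after the RefSeq gene start (Sscrofa11.1), as 2 copies of GAAA with any 2 bases between them on either strand. They were found in 18 of 42 genes of the list with a RefSeq start (42.9%) and in 3.57% of all 19543 promoters of that length. IFIT5 and SAMD9 were not matched to a RefSeq entry. The GAS letters TTCNNNGAA, which read the same on both strands, were found in 4 of 42 (9.52%) and in 7.11% of all promoters. A match is a description of letters and not a binding site.

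Of the 10 genes with counts in every liver, 4 held the ISRE letters, namely IFIT1, OAS2, IFIH1 and IDO1. Their promoter sequences are shown because they carry the element that names the family, from 240 bases before the RefSeq start to 10 bases from the start on, 5′ to 3′ on the gene's strand, with the ISRE letters in capitals.
IFIT1, chr14:101237163-101237412 (+ strand): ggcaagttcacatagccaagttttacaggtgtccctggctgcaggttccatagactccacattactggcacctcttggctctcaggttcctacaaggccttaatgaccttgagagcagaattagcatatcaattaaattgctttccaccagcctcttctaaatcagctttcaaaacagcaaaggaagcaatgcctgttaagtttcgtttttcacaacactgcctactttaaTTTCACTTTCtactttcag
OAS2, chr14:38847688-38847937 (- strand): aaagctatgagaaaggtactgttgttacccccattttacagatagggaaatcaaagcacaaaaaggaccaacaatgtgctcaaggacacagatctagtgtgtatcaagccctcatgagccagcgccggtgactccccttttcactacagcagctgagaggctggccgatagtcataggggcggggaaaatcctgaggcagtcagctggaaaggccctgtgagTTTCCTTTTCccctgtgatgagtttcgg
IFIH1, chr15:68985136-68985385 (- strand): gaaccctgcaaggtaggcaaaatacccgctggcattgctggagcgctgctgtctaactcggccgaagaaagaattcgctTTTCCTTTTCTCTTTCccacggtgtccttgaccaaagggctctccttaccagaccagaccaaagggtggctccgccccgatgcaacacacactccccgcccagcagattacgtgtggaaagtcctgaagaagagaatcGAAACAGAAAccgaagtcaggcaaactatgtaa
IDO1, chr17:9245043-9245292 (+ strand): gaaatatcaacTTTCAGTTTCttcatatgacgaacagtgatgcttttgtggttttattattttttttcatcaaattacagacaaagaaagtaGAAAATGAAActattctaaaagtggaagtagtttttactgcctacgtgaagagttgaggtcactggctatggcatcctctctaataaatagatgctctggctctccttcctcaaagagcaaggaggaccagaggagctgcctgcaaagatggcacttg

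In IFIT1 the match began 9 bases before the start, and in OAS2 it began 18 bases before it. IFIH1 held 3 matches, of which a pair that share letters began 161 and 155 bases before the start and another began 23 bases before it. IDO1 held 2, at 229 and 148 bases before the start. MX1, ISG20, IRF9, CMPK2, ZC3HAV1 and ADAR held no such letters within this window, and the window says nothing of other starts of these genes.

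Among the sensors, IFIH1 (MDA5), which detects long double-stranded RNA in the cytosol, had 305, 237 and 249 normalized counts in bottle-fed livers 1 to 3. In PN 1 to 6 it had 422, 418, 1394, 421, 2245 and 780. The lowest PN liver was above the highest bottle-fed liver, and PN 1, PN 2 and PN 4 lay within a narrow band just above the bottle-fed group. The log2 fold change was 1.38 ± 0.41 (SE) over 8 livers (adjusted p = 0.00760, edgeR quasi-likelihood test) and 1.84 ± 0.56 over 9. The exact permutation test gave p = 0.0714 over 8 livers.

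IRF9 is the DNA-binding subunit of the complex with STAT2. It had 24.5, 20.7 and 19.8 normalized counts in bottle-fed livers and 38.0, 76.8, 94.3, 42.6, 95.4 and 64.0 in PN 1 to 6. Every PN liver was above every bottle-fed liver. PN 5 and PN 3 were nearly equal here, and PN 2 stood above PN 6. The log2 fold change hardly moved with PN 5, at 1.53 ± 0.43 over 8 livers (edgeR adjusted p = 0.00555) and 1.65 ± 0.44 over 9, and the exact permutation test gave p = 0.0357 over 8 livers. The gene model of IRF9 in the files overlaps REC8 on the same strand by 1151 bases, so some of its reads may belong to that gene.

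**Figure D1:**
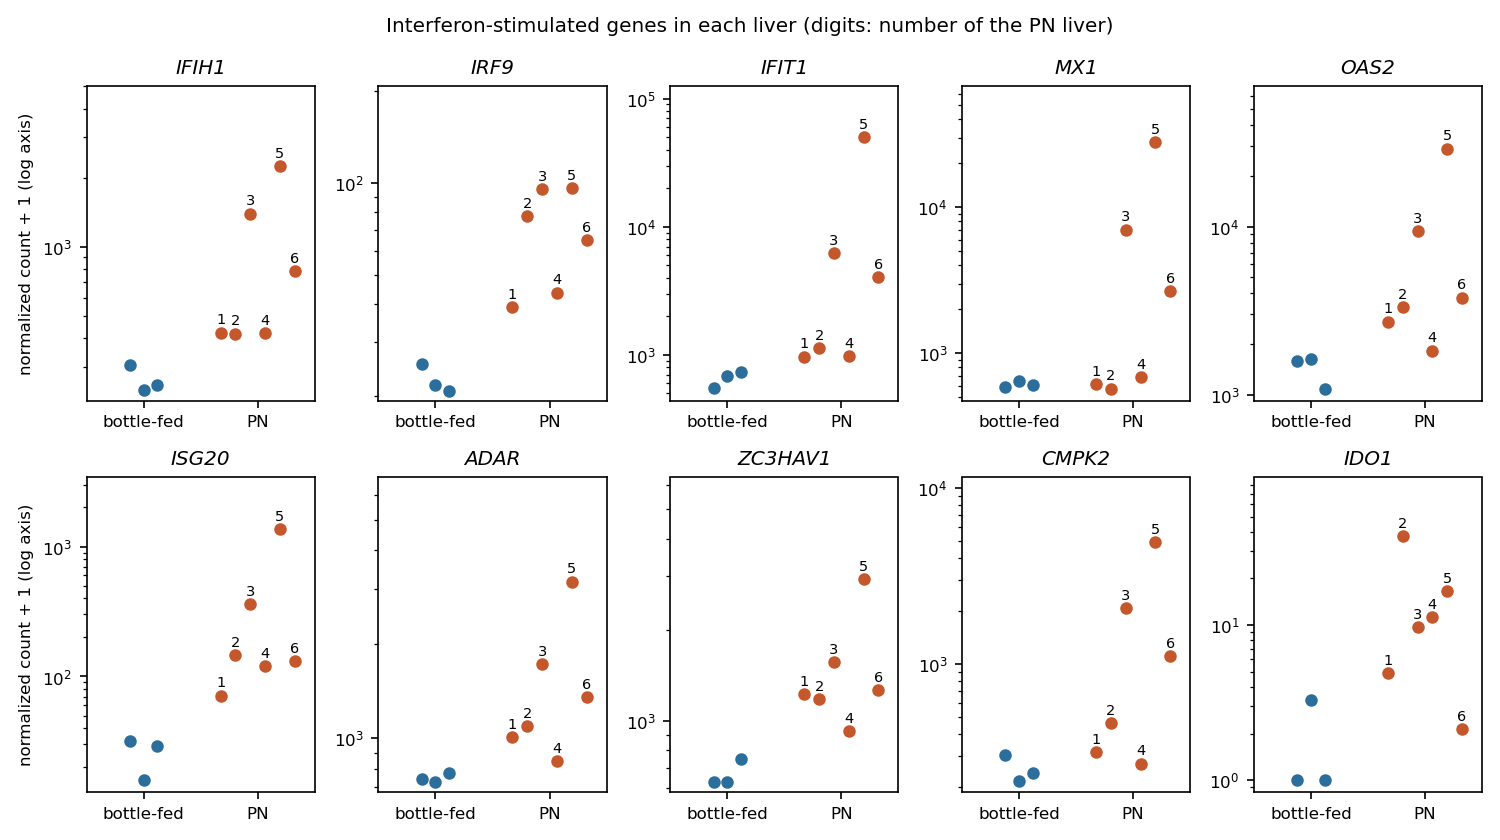
Normalized count plus 1 (log axis, a separate scale per gene) of the 10 interferon-stimulated genes in each of 3 bottle-fed livers (blue) and 6 PN livers (orange, labelled by number). Each point is 1 liver, and PN 5 is the highest point in 9 of the 10 panels while PN 1, PN 2 and PN 4 lie near the bottle-fed livers for MX1.

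IFIT1 and MX1 showed the widest spread among PN livers. IFIT1, which binds viral RNA that lacks the host's cap methylation, had 546, 687 and 736 normalized counts in bottle-fed livers. PN 1 to 6 had 965, 1124, 6218, 971, 50006 and 4024. All 6 PN livers were above the bottle-fed livers, but PN 1, PN 2 and PN 4 only 1.47- to 1.71-fold above the bottle-fed mean, and PN 5 76.2-fold. The log2 fold change was 2.02 ± 0.62 over 8 livers (edgeR adjusted p = 0.00839) and 4.01 ± 1.32 over 9, and 1.43 without both PN 3 and PN 5. By the exact permutation test p was 0.107 over 8 livers and 0.119 over 9, since other splits of the livers gave mean differences as large. In the files the IFIT1 model (chr14:101214710-101249501, Sscrofa11.1) spans the RefSeq gene IFIT3 and lies within LIPA on the opposite strand. The IFIT1 values may therefore hold reads of both, as the use of strand in counting is not given in the sources used here.

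MX1 encodes a GTPase that traps viral nucleocapsids. It had 589, 648 and 606 normalized counts in bottle-fed livers and 615, 571, 7009, 684, 27916 and 2666 in PN 1 to 6. PN 1 and PN 2 lay at or under the highest bottle-fed liver and PN 4 was 1.11-fold over the bottle-fed mean, whereas PN 6, PN 3 and PN 5 were 4.34-, 11.4- and 45.4-fold over it. For MX1 the PN livers thus fell into 3 high and 3 near the bottle-fed group. Its log2 fold change was 1.91 ± 0.77 over 8 livers (edgeR adjusted p = 0.0280) and 3.42 ± 1.23 over 9, and the exact permutation test gave p = 0.268 and 0.262. Without PN 3 as well as PN 5 the log2 fold change was 0.88 (edgeR adjusted p = 0.0945).

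OAS2 makes the oligoadenylates that activate the RNA-degrading enzyme RNase L. Bottle-fed livers had 1584, 1630 and 1081 normalized counts, and PN 1 to 6 had 2716, 3307, 9356, 1826, 29052 and 3779. The groups did not overlap, and PN 4 was the PN liver nearest to the bottle-fed values. PN livers were higher by a log2 fold change of 1.55 ± 0.47 over 8 livers (edgeR adjusted p = 0.00760) and 2.54 ± 0.83 over 9. The exact permutation test gave p = 0.0536 over 8 livers and 0.0595 over 9. The files' OAS2 model (chr14:38827660-38860820) overlaps the neighbouring RefSeq gene OAS1 on the same strand by 9738 bases, so reads of the pair could not be separated with certainty.

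ISG20, an exonuclease that degrades single-stranded RNA, was low in bottle-fed livers, at 31.1, 15.0 and 28.1 normalized counts. It had 70.2, 144, 359, 119, 1361 and 130 in PN 1 to 6. Even the lowest PN liver, PN 1, stood 2.84-fold above the bottle-fed mean. The fitted log2 fold change was 2.72 ± 0.54 over 8 livers (edgeR adjusted p = 0.00104) and 3.86 ± 0.97 over 9, and the exact permutation test gave p = 0.0179 over 8 livers, the smallest it can give there.

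ADAR, which edits adenosines in double-stranded RNA, and ZC3HAV1 (ZAP), which binds CpG-rich viral RNA, moved least in size. ADAR had 741, 722 and 775 normalized counts in bottle-fed livers and 1007, 1094, 1730, 842, 3175 and 1356 in PN 1 to 6. ZC3HAV1 had 628, 627 and 748 in bottle-fed livers and 1225, 1177, 1561, 924, 2945 and 1267 in PN livers. Both kept all PN livers above all bottle-fed livers, with PN 4 the nearest. The log2 fold change over 8 livers was 0.69 ± 0.27 for ADAR (edgeR adjusted p = 0.0234) and 0.88 ± 0.24 for ZC3HAV1 (edgeR adjusted p = 0.00484). With all 9 livers the values were 1.04 ± 0.40 and 1.18 ± 0.36. By the exact permutation test over 8 livers, p was 0.0536 for ADAR and 0.0179 for ZC3HAV1.

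CMPK2, a mitochondrial nucleotide kinase whose gene neighbours RSAD2, had 301, 216 and 239 normalized counts in bottle-fed livers. PN 1 to 6 had 312, 456, 2076, 269, 4921 and 1107. PN 4 lay within the bottle-fed range and PN 1 just above it. Here the log2 fold change was 1.74 ± 0.61 over 8 livers (edgeR adjusted p = 0.0146) and 2.60 ± 0.86 over 9, and the exact permutation test gave p = 0.143 and 0.107. Without PN 3 as well as PN 5 it was 1.09.

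IDO1, which starts tryptophan breakdown and responds mainly to interferon gamma, was near the limit of detection. Bottle-fed livers had 0, 2.3 and 0 normalized counts, from 2 reads in all, and PN 1 to 6 had 3.9, 36.3, 8.7, 10.2, 15.5 and 1.1. Its order differed from the other 9 genes, with PN 2 the highest and PN 6 the lowest and within the bottle-fed range. The ratio of PN to bottle-fed was 19.9 over 8 livers, with a 95% interval of 5.31 to 168 (exact binomial) that covers counting error only. PN 2 alone gave 43 of the 68 PN reads, and without it the ratio was 9.49 (2.37 to 82.6). Both bottle-fed reads came from bottle-fed 2, and without that liver PN was at least 9.51-fold higher, against a floor of 3 counts over the group. The edgeR adjusted p was 0.0142 and the exact permutation p 0.0536 over 8 livers.

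**Figure D2:**
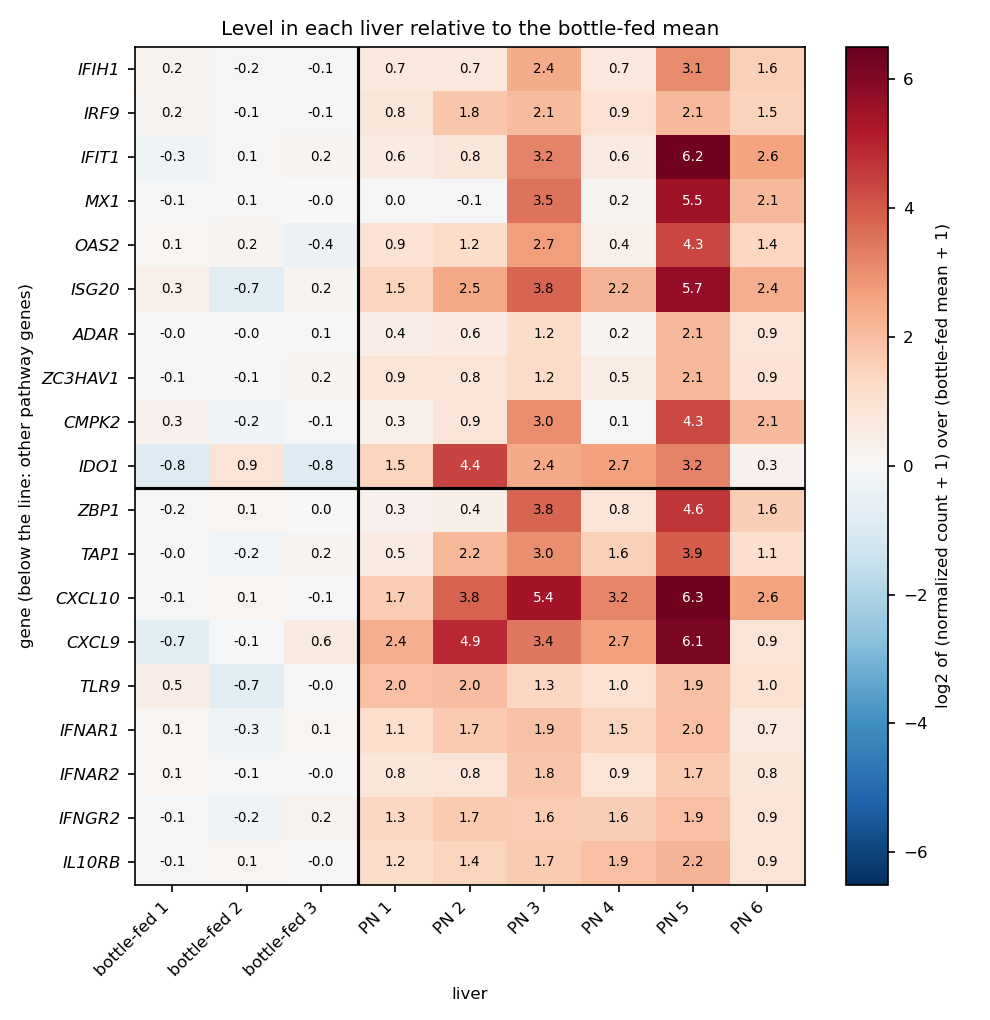
Log2 of the normalized count plus 1 over the bottle-fed mean plus 1, for each gene (rows) and liver (columns). Above the horizontal line are the 10 interferon-stimulated genes, below it 9 other genes of the pathway, and the darkest cells are those of IFIT1, MX1, ISG20, CXCL10 and CXCL9 in PN 5.

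All 10 were called higher in PN by edgeR over 8 livers, where 99.7% of the 1054 genes were called in either direction, and 10 of 10 over 9 livers, where 100% were. The exact permutation test called 3 of 10 over 8 livers (ISG20, IRF9 and ZC3HAV1), against 83.7% of all genes. It called 5 of 10 over 9 livers, with ADAR and IDO1 added, against 91.7%. The groups did not overlap for 7 of 10 over 8 livers, against 85.1% of all genes, and for 7 of 10 over 9 livers, against 82.6%. MX1, CMPK2 and IDO1 overlapped.

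The full order PN 5, PN 3, PN 6 from the top was seen in 7 of 10 genes and in 3.51% of the table. PN 5 followed by PN 3 was seen in 9 of 10 and in 8.54% of the table, and PN 5 was the highest PN liver in 27.6% of it. IRF9 and ISG20 had PN 2 in the place of PN 6. The 10 genes were measured in the same 6 PN livers, so these counts describe 6 livers and are not 10 separate observations. The table was most likely selected with PN 5 included, so a high value in PN 5 could help a gene into it. The place of PN 5 in this order is therefore not independent of the selection.

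The spread was measured as the SD of log2(normalized count + 1) among the livers of a group. Over the 10 genes the median SD was 0.21 in bottle-fed and 1.44 in PN livers, while over 1026 genes of the table with a bottle-fed SD above 0 it was 0.35 and 0.57. The median ratio of the PN to the bottle-fed SD was 4.93, against 1.61 over those genes. MX1 had a ratio of 32.5, ADAR of 13.3 and IFIT1 of 9.92, whereas IDO1, whose bottle-fed values rest on 2 reads, had 1.43. Each bottle-fed SD rests on 3 livers. The ADAR ratio came from a small bottle-fed SD of 0.05, as its PN SD of 0.69 was near the table's median. The PN SDs of MX1 and IFIT1 were 2.29 and 2.23. The SD among PN livers was over 1 in 7 of 10 genes and in 14.7% of the table.

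The wide spread did not depend on PN 5 alone. Without it the median ratio was 3.78 for the 10 genes and 1.42 over the table, and the MX1 ratio was 22.8. The SD among the 5 remaining PN livers was over 1 in 4 of 10 genes (IFIT1, MX1, CMPK2 and IDO1) and in 13.1% of the table. For IFIT1 the highest of these 5 livers was 6.45-fold over the lowest, and for MX1 12.3-fold, against 1.35- and 1.10-fold among bottle-fed livers.

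**Figure D3:**
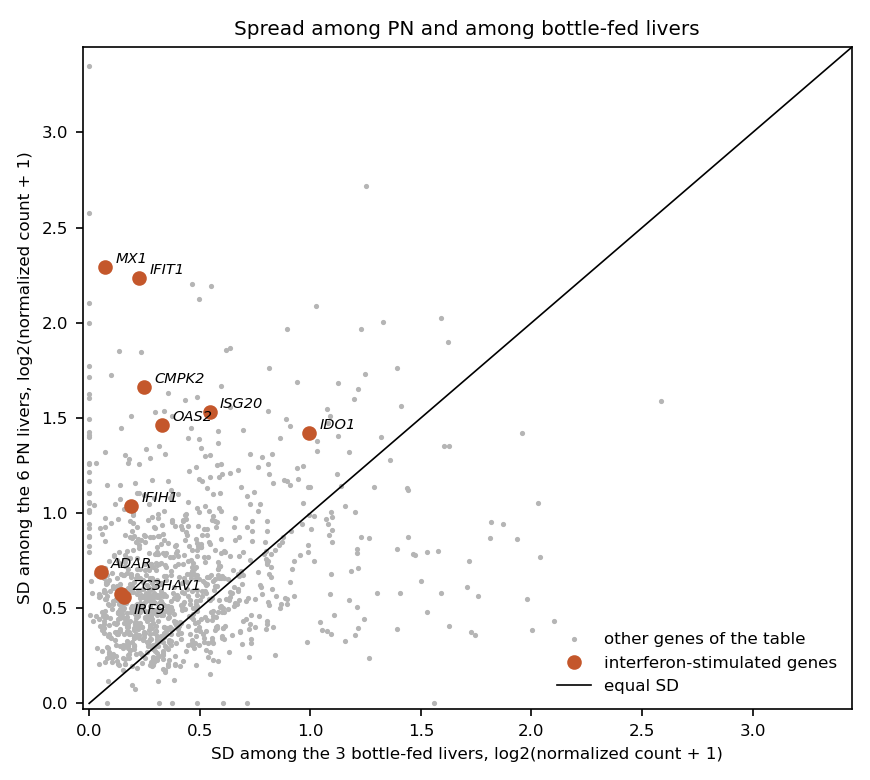
SD of log2(normalized count + 1) among 6 PN livers (vertical axis) against that among 3 bottle-fed livers (horizontal axis), with 1 point per gene of the table, the 10 interferon-stimulated genes in orange and the line of equal SD. MX1 and IFIT1 lie at the upper left, with PN SDs of 2.29 and 2.23 and bottle-fed SDs of 0.07 and 0.23.

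All 10 fold changes were larger with PN 5 than without it. Selection for the table asked for an authors' log2 change over 1 in size. ADAR and ZC3HAV1 passed 1 here only with PN 5 (1.04 and 1.18, against 0.69 and 0.88 over 8 livers). By DESeq2 the values were 0.69 and 0.88 without PN 5 and 1.04 and 1.18 with it. The sources used here do not name the libraries behind that selection. As ADAR and ZC3HAV1 passed 1 only in fits that held PN 5, the selection of the table most likely included it. The high place of PN 5 is then not independent of the selection in any of the 10 genes. The median log2 fold change of the 10 genes was 1.65 over 8 livers and 2.57 over 9, against 1.64 and 1.70 for the 573 genes of the table that were higher in PN. Adding PN 5 moved the log2 fold change by over 0.5 in 5 of 10 (IFIT1, MX1, ISG20, OAS2 and CMPK2, all upward) and in 6.46% of those 573. IRF9 and IDO1 moved least, by 0.12 and 0.05.

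**Figure D4:**
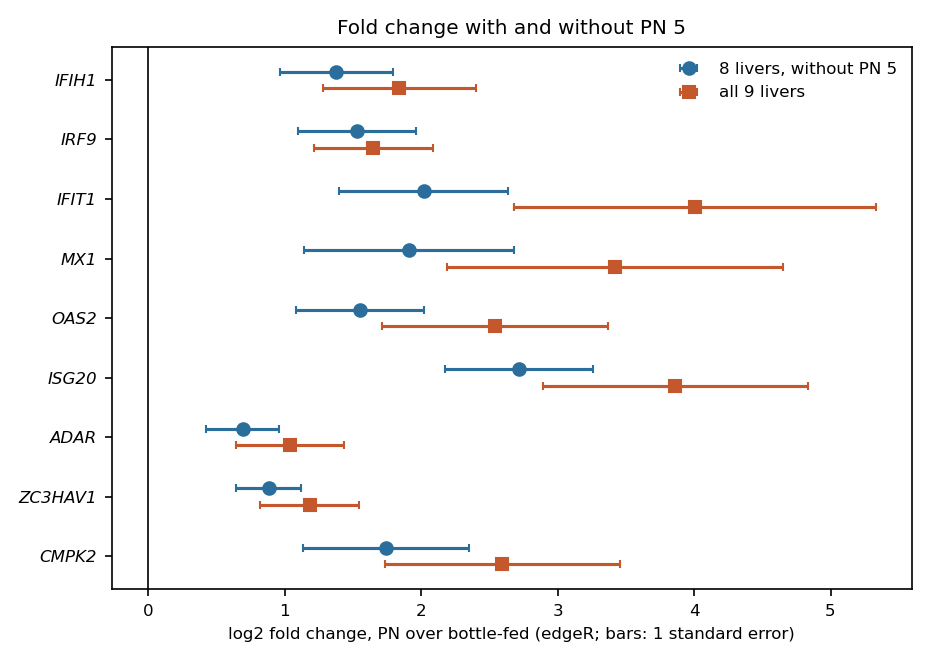
Log2 fold change of PN over bottle-fed livers (edgeR) for 9 genes, with 1 standard error as bars, over 8 livers without PN 5 (circles) and over all 9 livers (squares). IFIT1 moves from 2.02 to 4.01 and MX1 from 1.91 to 3.42, while IRF9 moves from 1.53 to 1.65.

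The share of all reads that fell on the 10 genes gives the same order of livers on a raw scale. It was 0.0227% to 0.0244% in bottle-fed libraries. In the PN group it was 0.0374% in PN 1, 0.0425% in PN 2, 0.151% in PN 3, 0.0309% in PN 4, 0.616% in PN 5 and 0.0766% in PN 6. No bottle-fed library reached the lowest PN library, and PN 5 held 109753 such reads against 4168 to 5808 in a bottle-fed library. Of these PN 5 reads, IFIT1 held 45085, OAS2 26193 and MX1 25169. The share therefore rests mostly on these genes, and the models of IFIT1 and OAS2 may hold reads of their neighbours. It is built from the same counts as the values per gene and is not a separate observation.

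A further 29 genes of the list had no counts per liver, and only the authors' mean over libraries was used for them, so their difference between groups was not tested here. They were not among the 1054 genes that the authors selected on the contrast. The 10 genes with counts are therefore a selected part of the list and do not stand for all of it. For the 7 genes of the list with both, such as OAS2 (authors' mean 3255, against 3160 over 8 livers and 6037 over 9), the mean can be set beside the livers. For IRF9 the authors' mean of 35.4 lay under both (47.6 over 8 livers and 52.9 over 9). Over 1037 genes it lay nearer to the mean of the 8 livers without PN 5 (median absolute log2 ratio 0.15) than to that of all 9 (0.22). The mean was at least 100 normalized counts in 26 of the 29. These means are not divided by gene length and are not ranked between genes. Among the sensors, the means were 342 for DHX58 (LGP2), which modulates IFIH1, 978 for ZNFX1, which binds RNA at mitochondria, and 23.2 for RIGI, which detects short double-stranded RNA with a triphosphate end. The factors that carry or amplify the signal included STAT2 (1489), IRF1 (960) and IRF7 (751), with SP110 at 505, IFI35 at 482 and NMI, which pairs with IFI35, at 410.

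Effectors in this group were EIF2AK2 (PKR, which stops translation) at 833, SAMD9 at 817, IFIT5 at 814, IFIT2 at 426, BST2 (tetherin, which holds budding virions) at 409, OAS1 at 289, TRIM21 (an antibody receptor in the cytosol) at 269 and OASL at 11.2. For nucleotide metabolism, SAMHD1, which breaks down nucleotides, had 2627, and RSAD2 (viperin), which makes a chain-terminating nucleotide, had 481. TRIM25, a ubiquitin ligase, had 1730, and UBA7, the activating enzyme for ISG15, had 10.5. The ADP-ribosylation group held PARP14 at 794, PARP12 at 626, DTX3L at 300 and its partner PARP9 at 163. The remaining induced proteins were IFI6 at 4666, LGALS3BP at 2943, IFI44L at 977 and IFI44 at 683. USP18, MX2, ISG15, XAF1 and IFIT3 were not analysed here.

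Of 60 other genes of the pathway (interferons, receptors, signal proteins and further induced genes), 9 had counts per liver under the symbols looked up and the others were not tested here. An entry named ISG12(A), a name also used for IFI27 of these 60, had counts per liver too but was not looked up. Its SD of log2(normalized count + 1) was 0.69 among bottle-fed and 1.43 among PN livers. All 9 were higher in PN by edgeR over 8 livers, none was lower, and the groups did not overlap for any of the 9 over 9 livers, against 99.7% of the table called and 82.6% not overlapping. The exact permutation test called 8 of the 9 over 8 livers, all but ZBP1 (p = 0.125), against 83.7%. These shares are near those of the pre-selected table as a whole. IFNAR1, a chain of the type I receptor, had 394 to 534 normalized counts in bottle-fed and 763 to 1873 in PN livers, and its partner IFNAR2 had 194 to 222 and 354 to 734. IFNGR2 of the interferon gamma receptor had 637 to 866 and 1381 to 2823, and IL10RB, shared by type III interferon and interleukin-10 receptors, had 68.7 to 81.8 and 138 to 342. The highest PN liver was 2.04- to 2.47-fold over the lowest for these 4 chains. Among the 10 antiviral genes this range ran from 2.51-fold (IRF9), 3.19-fold (ZC3HAV1) and 3.77-fold (ADAR) to 48.9-fold (MX1) and 51.8-fold (IFIT1). The ratio of PN to bottle-fed SD was 4.89 for IFNAR2, close to the median of the 10. It was higher for CXCL10 (17.2), ZBP1 (13.7) and TAP1 (7.28). It was lower for IL10RB (3.71), CXCL9 (2.93), IFNAR1 (2.04), IFNGR2 (1.60) and TLR9 (0.87). A wide spread among PN livers was thus not particular to the 10 antiviral genes. TLR9, a receptor for DNA, had 11.5 to 26.2 and 37.7 to 79.3, with PN 2 and PN 1 the highest.

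ZBP1, a sensor of Z-form nucleic acid, also had PN 5, PN 3 and PN 6 at the top, with 123 to 149 normalized counts in bottle-fed livers and 169, 180, 1912, 246, 3453 and 413 in PN 1 to 6. The chemokine CXCL10 had 204 to 231 in bottle-fed livers and 682, 3012, 9028, 1963, 16329 and 1309 in PN livers. CXCL9, which responds mainly to interferon gamma, had 10.6 to 27.1 in bottle-fed livers and 96.6, 566, 200, 120, 1297 and 34.3 in PN livers. In both chemokines PN 2 was above PN 6. The peptide transporter TAP1 had 186 to 236 in bottle-fed livers and 307, 937, 1739, 626, 3260 and 450 in PN livers, again with PN 2 above PN 6. IRF9, ISG20 and IDO1 shared this placing of PN 2 above PN 6, while IFIT1, MX1, OAS2, IFIH1, CMPK2, ZC3HAV1 and ADAR had PN 6 above PN 2. Some of these placings were near ties. The ratio of PN 2 to PN 6 was 1.11 in ISG20, 1.20 in IRF9, 0.93 in ZC3HAV1 and 0.87 in OAS2. It was furthest from equal in MX1 (0.21) and in IDO1 (31.8, from few reads).

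Of 44 markers of liver and blood cell types, 3 had counts per liver. BLNK, an adaptor of the B cell lineage also found in plasmacytoid dendritic cells, had 28.8 to 54.2 normalized counts in bottle-fed livers and 58.5, 81.0, 131, 50.03, 360 and 61.7 in PN 1 to 6. CSF3R, the neutrophil growth factor receptor, had 8.07 to 22.9 in bottle-fed livers and 17.6, 114, 34.6, 38.9, 86.5 and 21.7 in PN livers. DES, a stellate and muscle cell filament, had 214 to 301 and 442 to 830, highest in PN 5. BLNK was highest in PN 5 and PN 3 as most of the antiviral genes were, and CSF3R was highest in PN 2 as IDO1 was. PN 4 overlapped the bottle-fed livers in BLNK, as PN 1 and PN 6 did in CSF3R. Among markers with only an authors' mean, none was listed at 0 (lowest 7.85, S100A12). The part of these cells in the results was not tested.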

How the data were processed

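Liver mRNA-Seq libraries of 3 bottle-fed and 6 PN piglets were analysed, grouped by the labels. The submitters' processing notes name HISAT2 2.0.5, featureCounts 2.0.3, DESeq2 1.26.0 and the build Sscrofa11.1. The deposited counts are raw and cover, per library, 1054 genes that the authors selected. The normalized signal deposited by the authors is the count divided by 1 size factor per library, and the deposited mean signal covers 16223 genes. The sources used here do not name the libraries behind it. The deposited FPKM values were used only to recover library totals. The log2 fold changes and p-value columns are the authors' own DESeq2 results. They were read only to test how the table was filtered, and are not reported.

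Counts were tested with edgeR 4.0.16 (quasi-likelihood, R 4.3.3) with the authors' size factors and Benjamini-Hochberg adjustment over all 1054 genes at 0.05, without PN 5. The SE is the log2 fold change over the square root of F. As a second test, an exact two-sided permutation test on log2(normalized count + 1) counted the splits of livers whose absolute difference of means was at least as large (56 splits of 8 livers, 84 of 9, so that the smallest p is 0.0179 and 0.0119). Its p-values are not adjusted. Alternatives were DESeq2 1.42.0, all 9 libraries, library totals, TMM factors, a minimum mean of 10 normalized counts, pseudocounts of 0.5 and 5, a replicate block and leaving out each library. TMM factors, and the dispersions of both tools, were estimated from the 1054 selected genes only. TMM takes most genes as unchanged, whereas these were selected as different, so its result is a weak check. DESeq2 over 9 libraries and a fit of libraries 1 to 3 without the block were added after seeing the data. Counts of every pair of libraries differed by far more than sampling noise (36 pairs, chi-square divided by its degrees of freedom at least 71.8). Piglets were the replicates.

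Every gene of the list was to be named, with values per liver where these exist and otherwise the authors' mean, and likewise other pathway genes and cell markers with counts per liver. The genes and lists were chosen with earlier results of these data known. Promoters were read from the RefSeq genome and annotation of Sscrofa11.1, the build of the files.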

Additional observations from a re-analysis of the deposited data

Results flagged for a closer look

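The share of all reads that fell on the 10 interferon-stimulated genes set PN 5 far from the other PN libraries. Its gap to the nearest PN library (0.616% against 0.151% in PN 3) was 0.796 of the range of the 6 PN values, above Dixon's 95% critical value for 6 samples. This was the only 1 of 11 groups tested that passed, the other 10 being the log2 normalized counts of each gene among the PN livers, and chance passes about 1 in 20. The share is built from the counts of the same 10 genes, so the 11 groups are not separate tests. PN 5 was also already known as the library the study had excluded, so that rate does not measure how surprising its place is. The share was tested on its linear scale, and on the log2 scale, which the other 10 used, the gap was 0.471 of the range and did not pass.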

How the results depend on the processing

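All 10 genes kept their direction under every alternative that gave a value. Over all 9 libraries edgeR called 10 of 10, where it called 100% of the 1054 genes. It also called 10 of 10 with library totals and with TMM factors, as DESeq2 did over 8 and over 9 libraries. The share of all genes called was not counted in those fits. In a table selected on this contrast, these counts do not set the 10 genes apart. The exact permutation test called 3 of 10 over 8 libraries with pseudocounts of 1, 0.5 and 5, and 5, 5 and 4 of 10 over 9 libraries. With a pseudocount of 1 it called 83.7% of all genes over 8 libraries and 91.7% over 9. These shares were not counted for 0.5 and 5. Leaving out each of the 8 libraries in turn, edgeR called 6 to 10 of 10. Without 1 bottle-fed library it called 6 to 8 of 10, against 91.3% to 92.2% of all 1054 genes, and without 1 PN library 9 or 10, against 97.2% to 98.9%. MX1 lost its call without PN 3 or any 1 bottle-fed library, ADAR without any 1 bottle-fed library, IDO1 without bottle-fed 1 or 3 and CMPK2 without bottle-fed 3. The log2 fold changes at these losses were 1.88 to 1.95 for MX1 (0.88 without PN 3), 0.67 to 0.72 for ADAR, 3.32 and 3.45 for IDO1 and 1.71 for CMPK2. The ratio of spreads was 4.93 over all 9 libraries and 3.78 without PN 5. With PN 5 kept in and each other library left out in turn, it ran from 4.94 to 10.8, the highest being without bottle-fed 1. With the replicate number as a block (libraries 1 to 3) 9 of 10 were called, against 10 without the block on those libraries. The share of all genes called was not counted in either fit, so the 10 genes cannot be set against the table there. The numbers do not pair the piglets (correlations of same-numbered deviations -0.03, -0.05 and -0.02). IDO1 had no value under the minimum mean of 10. With TMM factors PN 5 was the highest PN liver in 8 of 10 genes. Of the values for single genes, 171 kept their side of the threshold and 48 lost the call. With 3 bottle-fed livers the permutation test can reach 0.0179 at best over 8 livers, and low counts limit IDO1.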
